A study of Homo sapiens with 8 samples.

Results

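The untreated state of CAL-27 cells was described from the 3 control arrays of a study that held 8 arrays in all. CAL-27 is an established human line grown from a squamous carcinoma, a cancer of the head and neck. Per the labels, the cells grew in DMEM with 10% serum and antibiotics and were then starved of serum for 24 h. The other groups of the study received an inhibitor for a further 24 h. The same treatment time of 24 h is recorded for these 3 samples, which the labels give only as control, with no vehicle named. All values below are therefore from 1 cell line, without serum, and every control was one Cy3-labelled total RNA sample on its own array. The labels do not say whether the 3 samples came from separate cultures, so the spread given here is the spread between these samples and may be technical.

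Squamous epithelium lines the mouth and the skin. Its basal cells sit on a basement membrane through hemidesmosomes, hold to each other through desmosomes and cadherin junctions, and carry a keratin skeleton whose members change as the cells move upwards: the pair KRT5 and KRT14 marks basal cells, KRT1 and KRT10 or KRT4 and KRT13 mark the layers above, and KRT6, KRT16 and KRT17 appear in wounded or rapidly growing epithelium. Each keratin filament is built from a type I and a type II keratin, so the genes are expressed in pairs. Carcinomas of this tissue often signal through the epidermal growth factor receptor and secrete inflammatory cytokines.

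Each array read 41000 probes, of which 27992 could be named, covering 18497 genes. A gene was taken as above background where a probe of it had a signal-to-noise score above 3, that is, a spot brighter than its surroundings by more than 3 SDs of the surrounding pixels. By this measure 11662 genes (63%) were above background on all 3 arrays, 1538 on 1 or 2 arrays, and 5297 (28.6%) on none. Genes above background on all 3 arrays were called high if their mean signal lay in the upper 25% of such genes, which gave 2916 genes (15.8% of all), and moderate otherwise (8746 genes). Signals are normalised log2 intensities of the brightest probe of a gene, given as mean ± SD over the 3 arrays. High genes started at 10.51, the median of all genes above background was 8.89, and genes above background on no array had a median of 5.99, so a value near 6 is the floor of the scale. Probes differ in how well they bind, so these classes and the percentiles given below, which are ranks among the 11662 genes, describe spot brightness; they do not measure how many transcripts of one gene there are for each transcript of another.

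The arrays were alike in brightness, with median foreground intensities of 75 to 87 and 53% to 55.7% of probes above background. At most 0.654% of 153 negative control spots passed the score on an array. Between 20 and 24 probes were saturated. Control 1 and control 3 differed most (root mean square log2 difference 0.421), while control 2 differed from control 1 by 0.233 and from control 3 by 0.27. For the median gene above background the SD was 0.11.

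The brightest named genes were mostly housekeeping genes. The 20 with the highest mean signal held the ubiquitin gene UBB, the ribosomal protein genes RPS27, RPS2, RPL35, RPS14, RPL7A, RPS28 and RPLP1, the ferritin heavy chain FTH1, the tubulin TUBA1C, the ornithine decarboxylase antizyme OAZ1 and the glutathione transferase GSTP1. The means of these genes ran from 15.75 to 15.89, and 46% to 83% of the pixels of their spots were saturated on at least 1 array, so their order carries no meaning. Genes with restricted tissue roles stood among them too: the dopamine receptor DRD4, the ion channel HCN2 and the homeobox gene HOXA3. For DRD4 the bright probe had a mean of 15.89 while its other probe was not above background on any array, and 225 of the 1423 high genes with more than 1 probe (15.8%) likewise had a probe above background on no array. A level given below rests on the brightest probe, and where probes of a gene disagreed the other values are given for some genes.

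Markers of squamous epithelium, the tissue that the line came from, were detected throughout. The marker lists were chosen with earlier results of these data known, so their shares describe the cells and are no independent check of the label. All 15 squamous epithelial markers were above background on all 3 arrays (100%, against 63% of all genes) and 11 of them were high. TP63, the transcription factor that maintains basal squamous cells, gave 13.82, 13.60 and 13.31 (13.58 ± 0.26) with its brighter probe, and 6.68 with its other probe, which was also above background on all 3 arrays. Markers of other cell types were detected at shares from 0% to 66.7%, against 63% of all genes. Part of these lists was thus above background in CAL-27 cells too, and the leukocyte share lay near that of any gene. Of 12 leukocyte markers 8 (66.7%) were moderate: FCER1G, HLA-DRA, LCP1, CD3E, CD14, CD68, ITGAM and TYROBP. PTPRC, MS4A1 and CD3D, which mark leukocytes and their B and T cell branches, were above background on no array. Of 7 melanocyte markers 4 (57.1%), PMEL, MITF, DCT and MLANA, were moderate, and TYR, TYRP1 and SOX10 were above background on none. Of 13 markers of simple or secretory epithelium 7 (53.8%) were above background on all arrays, and the high ones were KRT8 and KRT18. Of 8 endothelial markers 4 (50%), VWF, CLDN5, ESAM and ERG, were moderate, and PECAM1, CDH5, KDR and TEK were above background on none. Of 11 muscle and neuron markers 4 (36.4%), TUBB3, MYOD1, GFAP and ENO2, were above background on all arrays. The tubulin TUBB3 was high (13.24) with a probe that also matches TUBB6. Of 10 fibroblast markers 2 (20%), THY1 and COL6A3, were moderate, and 5, among them COL1A2 and COL3A1, were above background on none. Of 7 liver markers 6 were above background on none and TF on some arrays only.

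Basal and stress keratins were all high, while the other keratin lists were mixed or mostly moderate and absent. Of 52 measured keratin genes 30 were above background on all 3 arrays (57.7%, against 63% of all genes), 12 of them high and 18 moderate, 2 on some arrays and 20 on none. All 3 basal keratins were high. KRT5, the type II keratin of basal cells, gave 13.78, 13.64 and 13.45 on controls 1, 2 and 3 (13.62 ± 0.17, percentile 96.7). Its type I partner KRT14 gave 12.89, 12.79 and 12.22 (12.64 ± 0.36, percentile 93.2), and KRT15, a basal keratin of quiescent and stem-like cells, gave 13.29, 13.24 and 12.69 (13.07 ± 0.33). All 3 basal keratins were lowest on control 3, by up to 1.59-fold for KRT14.

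The 5 keratins of wounded epithelium were high as well. KRT6A gave 14.48, 14.51 and 14.61 (14.53 ± 0.07, percentile 98.7), with nearly the same value on each array. Its probe also matches KRT6B in the naming, and so does the probe of KRT6C. Neither of these 2 probes can separate its gene from KRT6B. KRT17, a type I keratin induced by injury, gave 13.18, 12.97 and 12.63 (12.93 ± 0.28) and was lowest on control 3. KRT16, the usual partner of KRT6, gave 10.76, 11.11 and 10.84 (10.91 ± 0.19, percentile 79.5).

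Simple-epithelial keratins, which glandular and embryonic epithelia use, were split. KRT18 gave 13.79, 13.71 and 13.97 (13.82 ± 0.13, percentile 97.2), and 3 of its 4 probes were above background, the other lying at 6.31. Its partner KRT8 gave 12.42, 12.26 and 12.17 (12.28 ± 0.12) with the brighter probe, while its other probe had a mean of 6.91, and the mean of both would make KRT8 moderate (percentile 71.4). KRT80, counted in this list though it is not confined to simple epithelium, was also high (11.49 ± 0.04). KRT23 and KRT19 were moderate (8.68 ± 0.25 and 7.13 ± 0.15), and the glandular keratins KRT7 and KRT20 were above background on no array.

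Keratins of the differentiating layers were mostly moderate or absent. Of 13 measured, only KRT10, the type I keratin of the spinous layer of skin, was high, at 12.03, 12.08 and 12.43 (12.18 ± 0.22). Its type II partner KRT1 was moderate at 7.49, 7.40 and 7.47 (7.45 ± 0.05, percentile 21.6). The pair of the mucosal upper layers was moderate too: KRT13 gave 8.50, 8.81 and 8.06 (8.46 ± 0.38) and KRT4 gave 7.24, 7.11 and 6.86 (7.07 ± 0.19). KRT2, KRT12, KRT24, KRT77 and KRT78 were above background on no array. Of 24 measured keratins of hair and hair follicle none was high, 9 were moderate and 13 were above background on none. KRT81, a hair keratin, had signals of 10.13, 10.44 and 9.73 but a score of 0.83 on control 1, where the pixels around the spot were uneven, so it counts as above background on 2 arrays only. No keratin above background on all 3 arrays differed by 2-fold between arrays, where 1.86% of all such genes did.

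**Figure D1:**
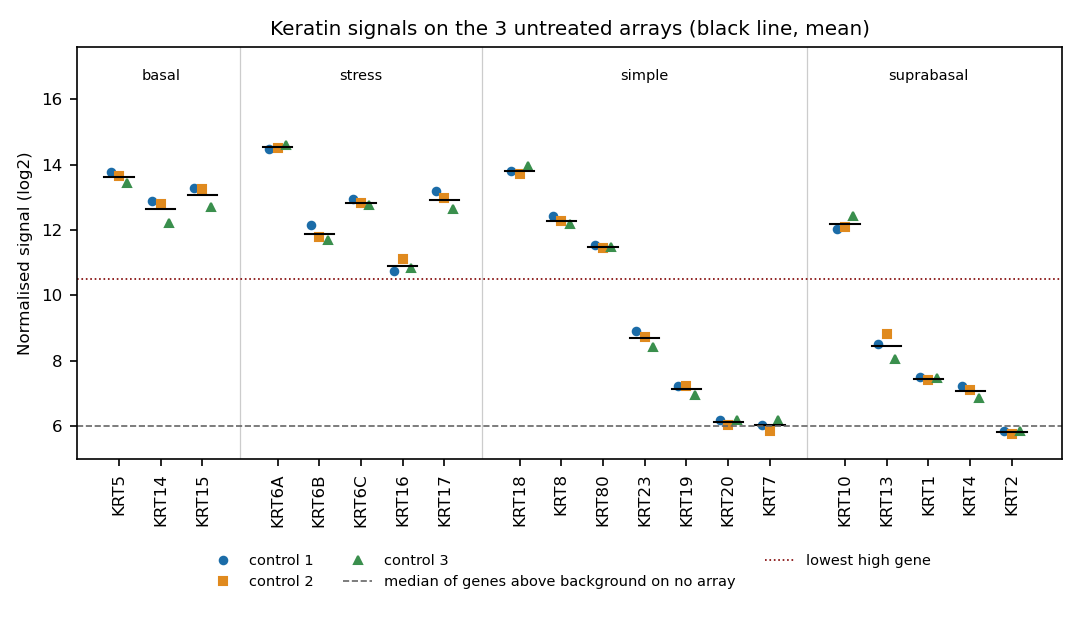
Normalised log2 signal of 20 keratin genes on the 3 untreated arrays, grouped by the list they were counted in, with the mean as a black line. The dotted line is the level where high genes start (10.51). The dashed line is the median of genes above background on no array (5.99). All 8 basal and stress keratins lie above the dotted line on all 3 arrays, while KRT7, KRT20 and KRT2 lie at the dashed line.

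The keratin genes with a listed start region also shared a feature of it that the classes did not use. RefSeq start regions (GRCh38.p14, 250 bases before to 50 after the first listed start) were matched to 13823 of the 18497 genes, and the dinucleotide CG, which reads the same on both strands, was counted in their 300 bases. CG-rich start regions are typical of genes active in most tissues, and CG-poor ones of genes restricted to a few. The median was 27 CG in high genes, 26 in moderate genes, 20 in genes above background on some arrays and 11 in genes above background on none, and the share with fewer than 10 CG was 8.87%, 15%, 31.3% and 47.4% (44% of all 27305 start regions in the table). A start region was matched for 32 of the 52 measured keratins and for 16 of the 30 above background on all arrays. KRT14, KRT6A, KRT17 and KRT18, all high, had none. All 32 matched keratins had fewer than 10 CG, with a median of 3 in the 16 above background on all arrays and 2 in the 16 above it on none. Among these matched keratins the count did not separate the classes. Among metabolic genes the medians lay apart, at 27 in the 233 above background on all arrays and 5 in the 46 above background on none. The 250 bases before the start are shown for 4 genes, 1 for each combination of class and CG content, with each CG in capitals. KRT5 (chr12:52520395-52520644, minus strand) is a high gene with 6 CG here, GAPDH (chr12:6535014-6535263, plus strand) a high gene with 22, ALB, the albumin gene of liver (chr4:73404037-73404286, plus strand), is above background on no array and has 3, and PRKCB, a protein kinase C gene of blood cells and brain (chr16:23835733-23835982, plus strand), is above background on no array and has 30.
KRT5: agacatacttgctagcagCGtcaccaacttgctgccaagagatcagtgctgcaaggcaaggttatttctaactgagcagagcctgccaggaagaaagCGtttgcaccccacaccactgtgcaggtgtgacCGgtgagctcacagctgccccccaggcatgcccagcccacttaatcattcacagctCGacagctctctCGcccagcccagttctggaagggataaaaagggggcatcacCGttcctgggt
GAPDH: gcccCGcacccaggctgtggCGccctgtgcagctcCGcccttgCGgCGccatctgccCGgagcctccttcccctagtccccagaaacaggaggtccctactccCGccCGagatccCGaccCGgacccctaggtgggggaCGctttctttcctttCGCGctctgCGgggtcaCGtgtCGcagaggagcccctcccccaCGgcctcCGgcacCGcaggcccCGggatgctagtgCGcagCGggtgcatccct
ALB: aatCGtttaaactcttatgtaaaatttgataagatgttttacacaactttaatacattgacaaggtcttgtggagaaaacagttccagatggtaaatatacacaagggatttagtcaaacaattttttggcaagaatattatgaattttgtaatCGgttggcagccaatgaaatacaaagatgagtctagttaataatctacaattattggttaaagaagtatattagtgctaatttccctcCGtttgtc
PRKCB: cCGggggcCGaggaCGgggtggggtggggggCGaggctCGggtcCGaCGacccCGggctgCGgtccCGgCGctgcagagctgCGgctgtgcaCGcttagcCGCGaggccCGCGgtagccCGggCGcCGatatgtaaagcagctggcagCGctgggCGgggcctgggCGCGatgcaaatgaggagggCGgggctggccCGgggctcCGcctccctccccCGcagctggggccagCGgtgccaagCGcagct
PRKCB stands as a gene with a CG-rich start region and no signal above background, and KRT5 as the reverse. These counts describe the sequence windows and do not show what sets the level of a gene.

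Adhesion genes were detected at a rate close to that of all genes: 94 of 143 measured were above background on all 3 arrays (65.7%), 23 high and 71 moderate, and 36 on none. The anchors to the basement membrane stood out by their brightness. All 9 genes of hemidesmosomes and laminin-332 were above background on all arrays, and 5 were high. LAMB3, the beta chain of laminin-332, gave 14.46, 14.31 and 14.42 (14.39 ± 0.08, percentile 98.4). ITGB4 and ITGA6, whose products form the laminin receptor of hemidesmosomes, had means of 11.84 ± 0.07 and 11.62 ± 0.08, and COL17A1, the transmembrane collagen of the same structure, 11.05 ± 0.15. These 4 genes varied by no more than 1.23-fold between the arrays.

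Genes of cell-to-cell junctions came next. Of 14 desmosome genes 11 were above background on all arrays. The high ones were the plakophilin PKP3 (13.47 ± 0.08), the membrane protein PERP (13.39 ± 0.10), the plaque protein desmoplakin DSP (12.81, 12.55 and 12.72; 12.69 ± 0.13) and plakoglobin JUP (11.89 ± 0.23). The desmosomal cadherins were all moderate or below: DSG3, the desmoglein of basal layers, gave 9.30, 9.33 and 9.27, DSG2 had a mean of 7.37 ± 0.04, and DSC3 gave 6.91, 7.63 and 7.61 with control 1 the lowest. DSG1, DSC1 and DSG4, which belong to the upper layers and hair, were above background on no array.

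Both epithelial cadherins were high. CDH3, P-cadherin of basal cells, gave 11.95, 12.25 and 12.58 (12.26 ± 0.32), and CDH1, E-cadherin, gave 11.64, 11.49 and 11.59 (11.57 ± 0.08). The neuronal and mesenchymal cadherin CDH2 was moderate (7.34 ± 0.05, percentile 19.0). CDH11, a cadherin of mesenchymal cells, gave 7.47, 10.95 and 7.15: control 2 alone was bright, a 13.85-fold range, and the SD of 2.10 makes its mean of 8.52 of little use. Among 40 tight and gap junction genes 4 were high, including the junctional molecule F11R (12.64 ± 0.06) and claudin CLDN1 (10.87 ± 0.24), and 13 were above background on none. ITGB1, the common beta subunit of collagen and fibronectin receptors, was high (12.81 ± 0.12), with all 4 of its probes above background.

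Matrix genes and the proteases that cut the matrix were next. Of 40 matrix genes 29 were above background on all arrays (72.5%, against 63% of all genes) and 8 were high (20%, against 15.8%). SPARC, a matrix-binding glycoprotein, was high at 12.27, 12.28 and 12.24 (12.26 ± 0.02). Of 44 proteases and protease inhibitors 12 were high (27.3%, against 15.8% of all genes). Among them were the secreted inhibitor SLPI (15.03 ± 0.04, percentile 99.3) and the membrane inhibitor SPINT2 (14.83 ± 0.03). PLAU, the urokinase plasminogen activator, was high too (14.42, 14.40 and 14.37, mean 14.40 ± 0.03). The metalloproteases MMP7 (11.06 ± 0.07) and MMP1 (10.90 ± 0.27) were high, the latter lowest on control 3.

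Of 318 genes measured in the receptor family, 162 were above background on all arrays (50.9%, against 63%), and 23 were high (7.23%, against 15.8%). This family counted whole lists for Wnt (45 genes, 4 high) and Notch (17 genes, 1 high), which include ligands and secreted inhibitors besides receptors. Of 52 receptor tyrosine kinases only DDR1 and MET were high. DDR1, a collagen receptor, gave 12.77, 12.93 and 13.30 (SD 0.27), highest on control 3. MET, the receptor of hepatocyte growth factor, gave 12.64, 12.62 and 12.63 (12.63 ± 0.01) with its brightest probe and means of 7.84 and 7.64 with the others; the mean of the probes would place it at percentile 68.6, among the moderate genes. FGFR3 (10.45 ± 0.19) and AXL (10.11 ± 0.15) were the next brightest kinases.

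The epidermal growth factor receptors were moderate. EGFR, the receptor most often targeted in this cancer, gave 9.76, 9.61 and 9.75 (9.71 ± 0.08, percentile 63.9) with its only probe. ERBB2 gave 9.99, 9.85 and 9.66 (9.83 ± 0.16) with 1 probe, while its other probe (6.20) was above background on no array. ERBB3, which signals with a partner, had a mean of 7.63 ± 0.16, and ERBB4 was above background on no array. Receptors of other tissues were among the 24 kinases above background on none: the platelet-derived growth factor receptors PDGFRA and PDGFRB, KIT, RET and the endothelial receptors KDR and TEK.

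Ligands of these receptors were detected for 5 of 10 genes measured. NRG1, which binds ERBB3 and ERBB4, was high at 11.96, 11.98 and 12.04 (11.99 ± 0.05, percentile 89.2). Amphiregulin AREG, an EGFR ligand, gave 10.65, 10.36 and 10.51 and fell just short of the high class. HBEGF (8.15 ± 0.07), EREG (8.14 ± 0.19) and TGFA (6.71, 7.07 and 7.21) were moderate, and EGF, BTC, EPGN, NRG2 and NRG4 were above background on no array. Of 44 other growth factors 27 were above background on all arrays and 6 were high, led by the stress-induced GDF15 (13.14 ± 0.07), the matricellular CCN1 (12.94) and the carrier FGFBP1 (12.90). The other high members were VEGFB (12.89, 12.68 and 12.54), FGF3 (12.39, 12.67 and 11.81) and INHBA, the activin A subunit (12.01 ± 0.12). VEGFA was moderate (8.31 ± 0.08).

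No receptor of the transforming growth factor beta family was high. TGFBR2 gave 10.26, 10.16 and 10.21 (10.21 ± 0.05), and its partner TGFBR1 was above background on no array. In the Wnt group 4 of 45 genes were high, among them the secreted inhibitor DKK1 (12.12 ± 0.19) and the ligand WNT6, whose probes disagreed (13.49 and 6.99). NOTCH2 was the only high gene of 17 in the Notch group (11.30 ± 0.04), and NOTCH1 was moderate (7.45). In a list of nuclear receptors and AHR, 24 of 48 genes were above background on all arrays. The high nuclear receptors were ESRRA (11.80), RXRA (11.37) and NR2F2 (11.08). AHR, the dioxin receptor, which belongs to another family of transcription factors, was high too (11.43, 11.66 and 11.71; 11.60 ± 0.15). In a list of 42 G protein-coupled receptors chosen for epithelium 5 were high. The adhesion receptor ADGRG1 had the brightest probe of that list (12.83, 12.77 and 12.79, mean 12.80 ± 0.03). DRD4, named above with a brighter probe, was not in it.

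Cytokine receptors held 6 high genes of 63. The brightest were IL4R (12.52, 12.33 and 12.40; 12.42 ± 0.10), the interferon gamma receptor chain IFNGR1 (12.39 ± 0.14), TNFRSF12A, the receptor of TWEAK (12.36 ± 0.09), and IL20RB (11.38). Chemokine receptors were the emptiest receptor list: 13 of 22 were above background on no array, CXCR4 and CCR7 among them, and only the scavenging receptor ACKR3 was high (11.48). Of 15 Toll-like, NOD and associated sensors 10 were moderate and none high.

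Of the 5 families, ligands and cytokines had the smallest share detected: 79 of 187 (42.2%) were above background on all arrays, 14 were high (7.49%) and 88 on none (47.1%, against 28.6% of all genes). Wnt and Notch ligands were counted in the receptor family and not here. Interleukin IL1B, the secreted fever cytokine, was the only high gene among 52 interleukins and colony-stimulating factors, at 11.76, 12.33 and 12.79 (12.30 ± 0.51), a 2.03-fold range with control 1 lowest and control 3 highest. IL1A, its relative released from damaged epithelium, gave 9.98, 9.98 and 10.14 (10.03 ± 0.09), and IL6 gave 10.18, 10.01 and 10.09 (10.09 ± 0.08). Both were moderate, and both cross into the high class if every gene is represented by the mean of its probes. The receptor antagonist IL1RN was above background on no array; its spots had signals of 7.28 to 7.59 but scores of 0.48 to 1.15, so the pixels around them were uneven.

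Other epithelial cytokines were moderate: CSF2 (9.85 ± 0.02), IL36G (9.02 ± 0.20) and IL18 (7.74). Of cytokines made by T cells, IL2, IL3, IL4, IL5, IL13 and IFNG were above background on no array, while IL17F was moderate (8.56, 8.58 and 7.50). In the tumour necrosis factor and interferon list CD70 was high (11.29 ± 0.11), TNFSF10 (10.40 ± 0.24) and TNF (9.34, 9.18 and 9.10; 9.21 ± 0.12) were moderate, and IFNB1 was above background on none.

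Of 40 chemokines 15 were above background on all 3 arrays (37.5%, against 63% of all genes). They were led by a neutrophil attractant. CXCL1 gave 14.60, 14.56 and 14.60 (14.59 ± 0.02, percentile 98.7). CX3CL1, which draws T cells and natural killer cells (11.71 ± 0.10), the monocyte attractant CCL2 (11.61, 11.50 and 11.25; 11.45 ± 0.18) and CXCL2 (10.64, 11.05 and 11.45; 11.05 ± 0.40) were the other high members of 40, and 22 were above background on no array. The probe of CXCL2 also matches CXCL3. CXCL8, interleukin 8, gave 6.01, 6.83 and 8.75 with scores of 0.89, 6.25 and 49.44, so control 1 was at the floor while control 3 was clearly above it. CCL20 differed the same way to a smaller extent (8.10, 8.80 and 8.98). Other members ran the other way or hardly differed: CXCL3 gave 10.11, 10.00 and 9.74, CCL2 was lowest on control 3, and CXCL1 differed by 1.03-fold.

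**Figure D2:**
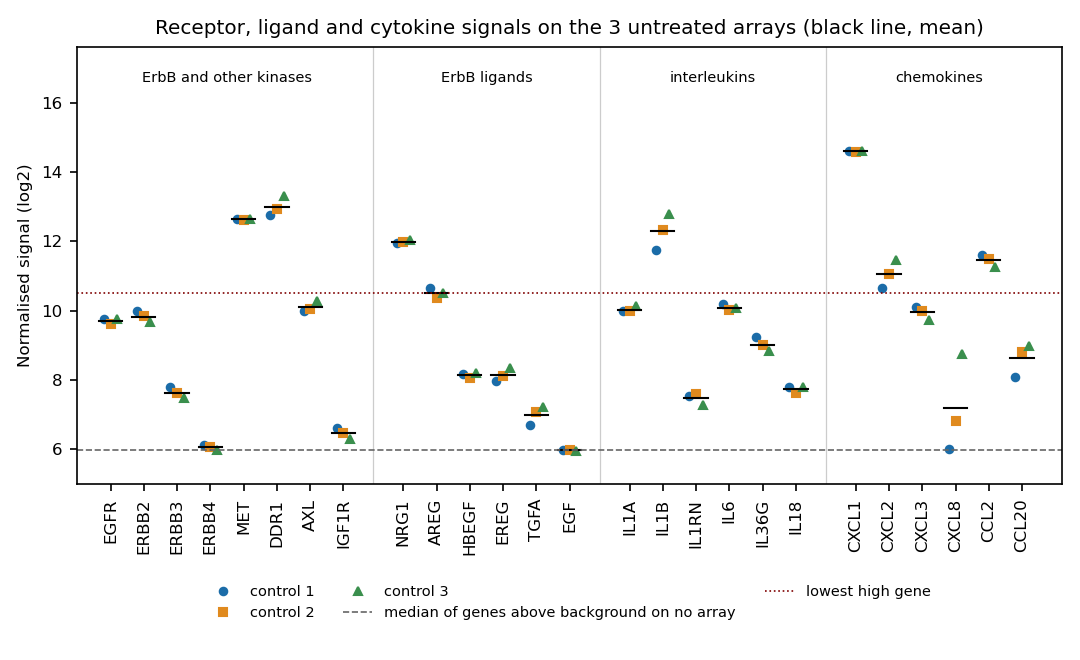
Normalised log2 signal of receptors, ligands and cytokines on the 3 untreated arrays, with the mean as a black line, the level where high genes start (10.51) as a dotted line and the median of genes above background on no array (5.99) as a dashed line. CXCL8 spans 6.01 to 8.75 across the arrays, while MET, NRG1 and CXCL1 have nearly coincident points.

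Defence and surface genes added to this picture. Of 15 defensins and other antimicrobials only the siderophore-binding protein LCN2 was high (13.80, 13.91 and 14.14; 13.95 ± 0.18), and DEFB4A, the inducible beta-defensin 2, was moderate (9.62). Of 35 antigen presentation genes 29 were above background on all arrays (82.9%, against 63% of all genes) and 13 were high. HLA-B had a mean of 14.92 ± 0.04 and its partner chain B2M 14.79 ± 0.04. The checkpoint ligand CD274 was moderate (7.19 ± 0.04). HLA genes are near copies that differ between people, so these probes may bind more than 1 of them or bind an allele poorly.

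Metabolic genes had the largest share detected of the 5 families: 286 of 370 (77.3%) were above background on all arrays and 147 (39.7%) were high, against 63% and 15.8% of all genes. The respiratory chain was detected almost throughout. Of 32 genes 29 were high, led by the ATP synthase subunit ATP5PO (14.70, 14.55 and 14.49; 14.58 ± 0.11), and COX4I2 and COX7A1, isoforms of lung and of muscle, were above background on none. COX6A2, the muscle isoform of a cytochrome oxidase subunit, gave 9.61, 11.58 and 12.58, a 7.88-fold range, while its widely expressed counterpart COX6A1 gave 14.17, 14.23 and 14.42. COX6C, a subunit of the same enzyme, was also lowest on control 1 (11.32) and highest on control 3 (12.44).

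Glycolysis held 12 high genes of 30. GAPDH, the enzyme of its middle step, gave 14.89, 14.80 and 14.59 (14.76 ± 0.16), enolase ENO1 14.76 ± 0.19 and PGK1 14.44 ± 0.08. Both lactate dehydrogenase subunits were high: LDHB gave 14.91, 15.09 and 14.73 (14.91 ± 0.18) and LDHA gave 13.24, 13.61 and 13.95 (13.60 ± 0.35), with control 3 highest for LDHA and lowest for LDHB. Hexokinase HK2 gave 11.58, 11.54 and 11.60 (11.57 ± 0.03), while the liver form PKLR and the leukocyte form HK3 were above background on none. The platelet phosphofructokinase PFKP had signals of 12.06, 12.06 and 11.93 but a score of 0.92 on control 3, and so counts as above background on 2 arrays only.

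Fuel enters and leaves through a few carriers. The glucose carrier SLC2A1 gave 10.95, 11.37 and 11.21 (11.18 ± 0.21) and the lactate exporter SLC16A3 gave 13.14, 13.02 and 12.56 (12.90 ± 0.31), both high. The insulin-regulated carrier SLC2A4, the liver carrier SLC2A2 and the neuronal SLC2A3 were above background on no array. In the pentose phosphate pathway transketolase TKT was high at 13.61, 13.50 and 13.33 (13.48 ± 0.14). Of 30 genes of the citric acid cycle and its entry 28 were above background on all arrays, led by MDH1 (13.39 ± 0.26), MDH2 (13.33) and SDHB (13.31 ± 0.10).

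Lipid genes differed by branch. Cholesterol synthesis held 14 high genes of 24. DHCR7, which makes the last step, gave 13.99, 13.87 and 13.94 (13.93 ± 0.06), and SQLE, the squalene epoxidase, gave 11.23, 10.94 and 11.21 (11.12 ± 0.16). Fatty acid synthesis held 4 high genes of 23, and the synthase FASN was moderate at 7.82, 7.70 and 7.63 (7.72 ± 0.09, percentile 27.4), as was ACLY (9.46 ± 0.02). SREBF1, the transcription factor of the branch, was high with 1 probe (14.22 ± 0.14) and moderate by the other (9.21). No control grown with serum was measured, so these levels stand for starved cells only.

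Amino acid enzymes and nucleotide synthesis genes were widely detected, and amino acid transporters were not. Of 26 transporters 11 were above background on all arrays (42.3%, against 63% of all genes) and 11 on none. The 2 chains of the large neutral amino acid exchanger were high: SLC3A2 at 13.47 ± 0.03 and SLC7A5 at 12.80, 12.87 and 13.10 (12.92 ± 0.16). Of 39 amino acid enzymes 36 were above background on all arrays, and the 3 that were above it on none, CPS1, OTC and ARG1, are the urea cycle enzymes of liver. All 23 nucleotide synthesis genes were above background on all arrays, 13 of them high, led by thymidine kinase TK1 (14.82 ± 0.07) and PAICS of purine synthesis (13.60 ± 0.13).

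Protection against oxidants and metals was bright as well. GSTP1 gave 15.77, 15.80 and 15.82, a level partly limited by saturation. Peroxiredoxin PRDX1 had a mean of 14.35 ± 0.05. Of 11 metallothioneins, which bind zinc and copper, 8 were high, with MT2A at 15.70 ± 0.07; several of these genes are near copies, so their probes may not separate them. MT1B gave 9.58, 10.48 and 11.96, a 5.21-fold range with control 3 highest. Xenobiotic enzymes and pumps were the least detected metabolic list after amino acid transporters: 16 of 36 were above background on all arrays, and only CYP3A5 was high (12.64, 12.56 and 12.13; 12.45 ± 0.27). CYP1A1, the classic target of AHR, had signals of 7.68, 7.66 and 7.66 with scores of 2.48, 4.33 and 4.74.

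**Figure D3:**
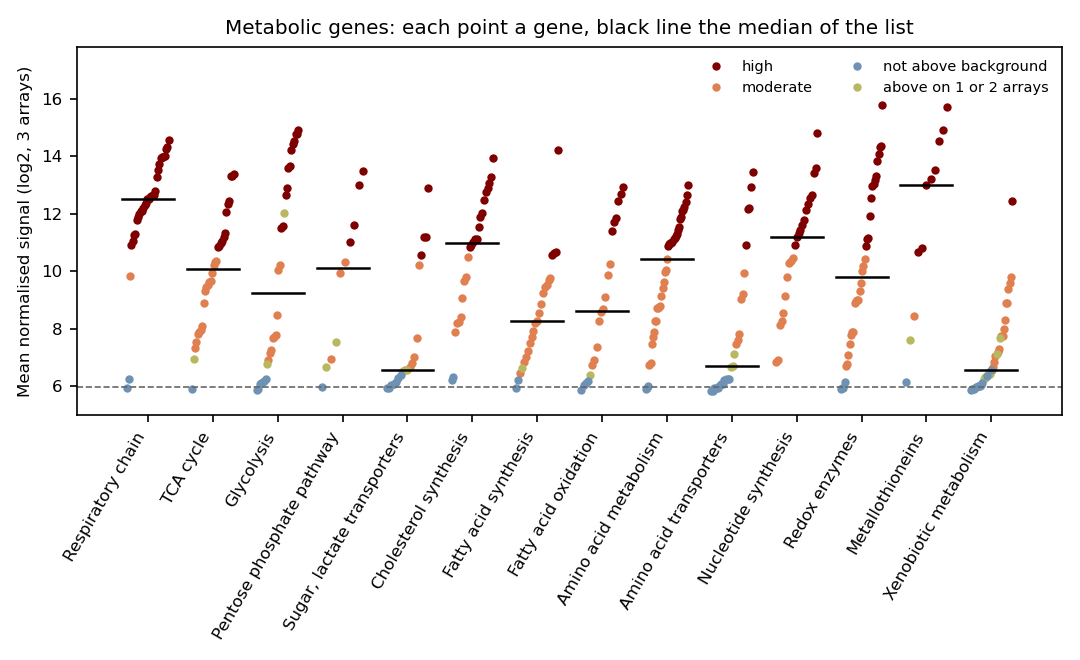
Mean normalised log2 signal over the 3 untreated arrays for each gene of 14 metabolic lists, coloured by class, with the median of each list as a black line and the median of all genes above background on no array (5.99) as a dashed line. Respiratory chain genes lie almost all in the high class, while sugar, lactate and amino acid transporters and xenobiotic genes have medians near the dashed line.

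**Figure D4:**
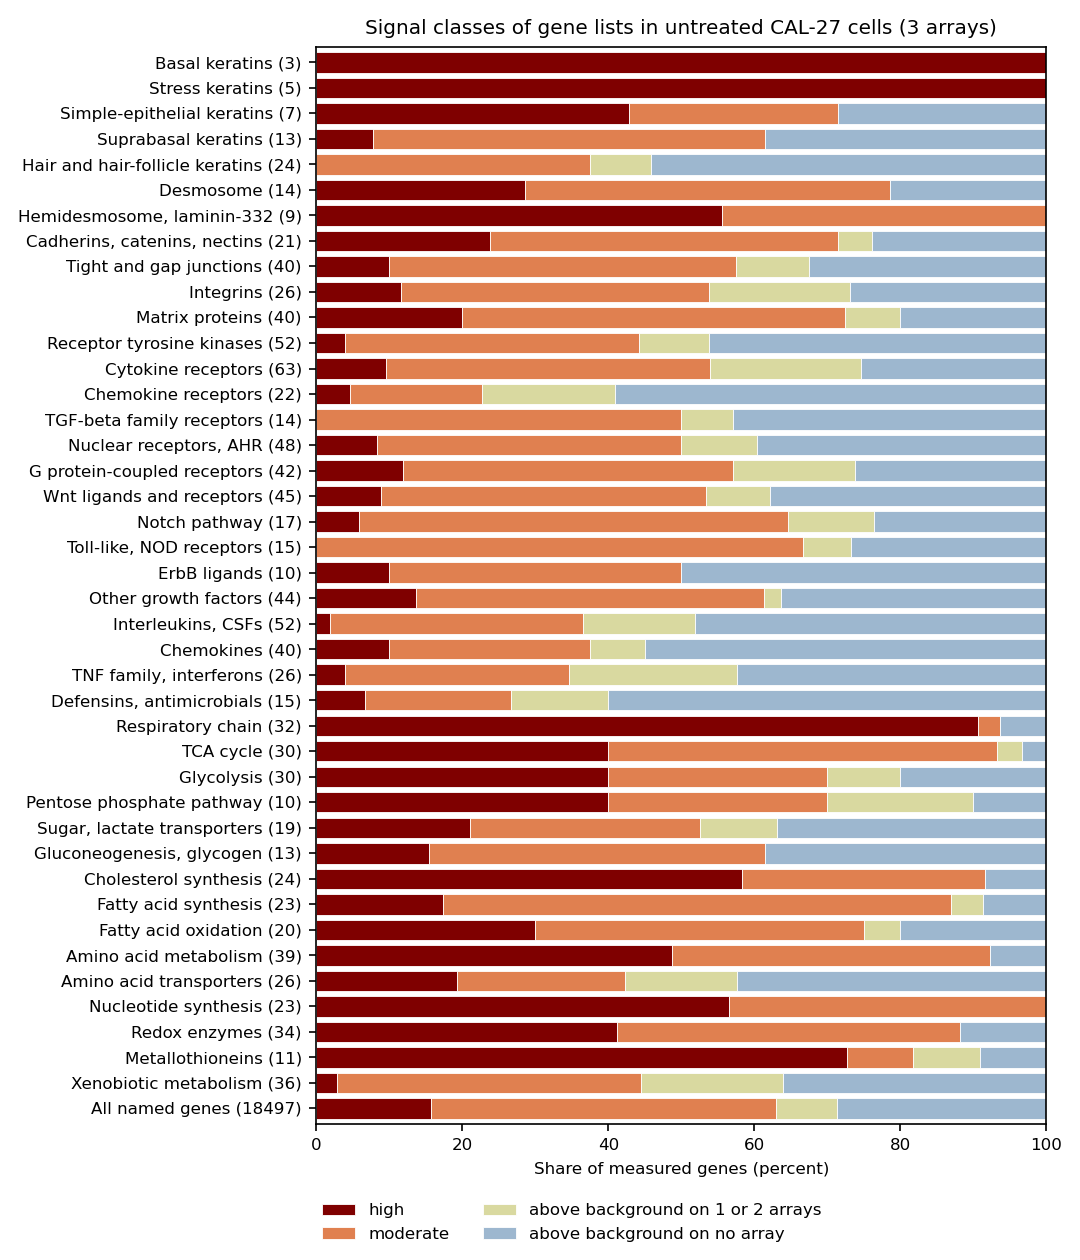
Share of the measured genes of each list that were high, moderate, above background on 1 or 2 arrays, or above background on no array, with the number measured in parentheses and all 18497 named genes in the bottom bar. Basal keratins, stress keratins, hemidesmosome genes and nucleotide synthesis genes have no member below background, and among the lists drawn, chemokine receptors and defensins have the smallest shares above background on all arrays.

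Squamous differentiation genes followed the keratins. Of 27 cornified envelope genes 4 were high, the protease inhibitor CSTA (13.18 ± 0.18), DMKN (12.05), SPRR1A (11.89 ± 0.12) and SPRR1B (11.30, 11.07 and 10.91; 11.09 ± 0.20). Involucrin IVL, an early envelope precursor, was moderate (7.69, 7.41 and 7.24; 7.45 ± 0.23), and the late proteins filaggrin FLG and CRNN were above background on no array. Of 20 S100 genes, which encode small calcium-binding proteins, 11 were high, with S100A2 at 15.56 ± 0.30 and S100A8 at 14.68 ± 0.09. Among 29 squamous transcription factors only TP63 and KLF5 (10.79 ± 0.27) were high, while SOX2 (9.03 ± 0.13) and KLF4 (8.59 ± 0.10) were moderate.

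Cell-cycle genes were present in the starved cells. Of 26 measured 25 were above background on all arrays (96.2%, against 63% of all genes) and 13 were high. The mitotic cyclin CCNB1 gave 13.31, 13.31 and 13.29 (13.30 ± 0.01), PCNA, the replication clamp, 12.42 ± 0.12, while MKI67 was moderate at 8.69, 8.73 and 8.76. Cyclin CCND1, which growth factors induce, gave 10.03, 10.07 and 10.05 (10.05 ± 0.02). Of 22 genes of the early serum response 20 were above background on all arrays (90.9%, against 63% of all genes) and 5 were high. MYC (12.03 ± 0.13) and IER2 (14.15, 13.92 and 13.92) were high, FOS was moderate at 7.36, 7.22 and 7.04, and EGR2 and EGR3 were the only members above background on no array.

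The kinases that the inhibitors of the study address were detected in part. Of 12 protein kinase C and D genes 7 were above background on all arrays (58.3%, against 63% of all genes), 1 of them high and 6 moderate, with 2 on some arrays and 3 on none. The atypical PRKCZ was high (10.85, 10.63 and 10.49; 10.66 ± 0.18), PRKCH (9.66 ± 0.02), PRKCI (8.22 ± 0.14) and PRKCD (8.12 ± 0.14) were moderate, and the conventional PRKCA gave 6.83, 6.71 and 6.71 (percentile 5.9). PRKCB, PRKCQ and PRKD1 were above background on no array, and PRKCB is the conventional form that enzastaurin was developed against.

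Differences between the 3 untreated arrays were small for most genes and reached at least 2-fold in 217 of 11662 (1.86%), 67 of them high and 150 moderate. Control 1 or control 3 was the extreme in most: the highest value lay on control 1 in 75, on control 2 in 25 and on control 3 in 117, and in 191 of the 217 control 2 lay between the others. In the families described, the genes with such a range were 3 of adhesion (CDH11, PKP4 and COL4A5), 1 receptor (LGR6), 2 cytokines (IL1B and IL17F), 5 metabolic genes (COX6A2, COX6C, MT1B, SUCLG1 and ACADM) and no keratin. Outside them UBE2C, a ubiquitin-conjugating enzyme of mitosis, gave 10.64, 11.68 and 12.54, while SLURP2, a secreted keratinocyte protein, gave 14.73, 14.35 and 12.71, and the thyroid and epidermal factor FOXE1 gave 10.54, 10.41 and 9.20; UBE2C, SLURP2 and FOXE1 were named after their values were seen. Of the 120 genes higher on control 3 than on control 1, 11 (9.17%) were pseudogenes and 25 (20.8%) were not in the RefSeq table, against 0.969% and 3.32% of all genes above background. Of the 97 that were lower on control 3, 1 (1.03%) was a pseudogene and 10 (10.3%) were not in the table. The widest ranges belonged to LOC644907 (7.46, 9.75 and 11.61) and CDH11. The labels name no difference between the 3 samples.

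**Figure D5:**
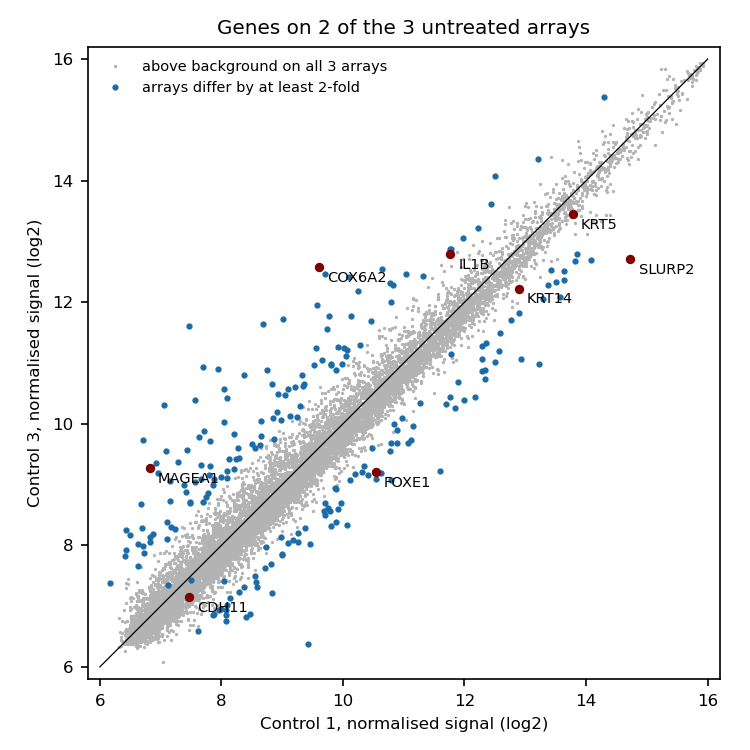
Normalised log2 signal on control 3 against control 1 for the 11662 genes above background on all 3 untreated arrays, with the 217 genes whose arrays differ by at least 2-fold in blue and 8 named genes in dark red. COX6A2, MAGEA1 and IL1B lie above the line of equality and SLURP2 and FOXE1 below it, while CDH11 lies near the line because only control 2 was bright.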

How the data were processed

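Only the 3 control arrays entered. The deposited scanner tables are GenePix output, per the file headers. As deposited they hold a raw foreground and background intensity of each spot, a signal-to-noise score (foreground mean minus background mean, over the background SD) and the percent of pixels that were saturated. The headers name a channel of 635 nm, while the labels name Cy3. The authors' value table, background-subtracted intensity without normalisation, served only as an alternative.

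The deposited annotation lists the probes in reverse order. Matched by probe, the rank correlation with the authors' table across probes, given as a description, was 0.00884 to 0.013 as deposited and 0.992 to 0.9937 after turning, and the turned order was used.

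In limma 3.58.1 (R 4.3.3), the foreground mean was corrected for the background median (normexp, offset 50). Control spots were then left out. The other spots were quantile normalised over the 3 arrays, and spots of a probe were averaged. Symbols came from the RefSeq accession for 23865 probes, the current symbol for 2004, an older symbol for 961 and the file's own name for 1162, while 13008 probes stayed unnamed. The brightest probe stands for a gene, and 264 of these probes match more than 1 gene. Any 1 probe above background on all arrays suffices for its gene. Nearest the limit on the weakest array were GLTP (3.017) and ALOX5AP (3.031) inside it and PCF11 and GARIN1B (both 3.0) outside. Levels and classes were tested on simulated data. All simulated spots had the same background noise and no gene had several probes. The simulation therefore cannot show how uneven backgrounds or disagreeing probes affect the classes. With 1 group, no test between groups was run.

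Named genes are the 20 brightest, up to 6 of the brightest members of each list and its best known members, the 10 with the widest range over the arrays, and those nearest the limit. The members and lists were chosen with earlier results of these data known, and the CG count was added after the values were seen. A few members enter the counts only, and their levels are not reported here. The number of arrays limits the precision. Alternatives varied the background correction, normalisation, score limit, probe choice and arrays.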

Additional observations from a re-analysis of the deposited data

How the results depend on the processing

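Of 117 recomputed counts, 113 stayed within 1.5 times the value reported. The alternative background corrections and normalisations of the scanner tables left every family's count of high genes unchanged. High ligand and cytokine genes numbered 21, in place of 14, with the mean of the probes, which is at that limit. They numbered 19 with a score above 2. Genes above background on no array numbered 2369, in place of 5297, when the limit was the 99th percentile of the negative control spots. Genes with a 2-fold range between arrays numbered 391, in place of 217, with the authors' value table, and 38 to 209 with 1 array left out; the count was 38 without control 3 and 93 without control 1, and fewer arrays give a narrower range by construction. Of 33 named genes 29 kept their side of the high class under all alternatives; the exceptions were IL1A (percentile 65.0 to 76.9), IL6 (65.7 to 77.5), KRT8 (71.4 to 91.6) and MET (68.6 to 93.3), each across the limit when the probes of a gene were averaged. No paired analysis was possible because the samples form 1 group and no test was run. Saturation limits the brightest genes, and an uneven local background can hide a bright spot from the score.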

Other observations

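Genes silent in most adult tissues gave a divided pattern. Of 27 measured cancer-testis genes, normally active in male germ cells, 6 were above background on all 3 arrays and 19 on none. MAGEA12 gave 12.42, 12.81 and 12.97 (12.73 ± 0.28), and MAGEA6 (11.19 ± 0.08) and MAGEA4 (10.97 ± 0.08) were high too; the probe of MAGEA6 also matches MAGEA3. MAGEA1 was low on control 1 and bright on control 3 (6.82, 7.61 and 9.27), a 5.45-fold range. CTAG1A, PRAME and MAGEA10 were above background on no array.

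Of 39 HOX genes, which mark position along the body axis, 17 were above background on all arrays (43.6%, against 63% of all genes) and 18 on none; HOXA3 was the only high one (15.82, with 7.48 by its other probe), and HOXD10 was moderate (9.70 ± 0.09). Of 15 mucin and trefoil genes none was high and 10 were moderate, among them the membrane mucin MUC1 (9.48 ± 0.18). MUC2, an intestinal mucin, gave 10.06, 9.67 and 8.34 with its brightest probe, 6.86 with another, and nothing above background with its last. Of 13 genes linked to mesenchymal change 8 were above background on all arrays: only SPARC was high, SNAI2 (8.62) and TWIST1 (8.75) were moderate, and VIM, SNAI1 and ZEB1 were above background on none, with VIM at 5.99, 6.02 and 6.26.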
